A study of Mus musculus with 2 samples.

Results

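The cells described here were the 87 cells of mouse small cell lung cancer tumor TKO1 that carried at least 3 unique molecular identifiers (UMIs, counted RNA molecules) of *Mycl*. They were taken from the barcodes with more than 500 detected genes, fewer than 10 UMIs of the club cell gene *Scgb1a1* and fewer than 5 UMIs summed over 6 macrophage genes (*Lyz2*, *C1qa*, *C1qb*, *C1qc*, *Tyrobp* and *Fcer1g*). In TKO1, 3005 of 4514 barcodes met these limits, and the *Mycl*-high cells were 2.90% of them (95% exact Clopper-Pearson interval 2.33 to 3.56). The series held 8330 barcodes in all, and in the other tumor, TKO2, 2 of 3466 cells within the same limits had at least 3 *Mycl* UMIs (0.0577%, 0.00699 to 0.208). All intervals given here cover counting error only.

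Both tumors came from mice in which *Rb1*, *Trp53* and *Rbl2* (p130) had been deleted (labelled Rb-/-; Trp53-/-; Rbl2-/-) on a background that mixed 129/SvOla and 129/SVJ with C57BL/6, with a Rosa26 membrane-Tomato or membrane-GFP reporter; the genotype label of TKO1 carries extra characters after the reporter. Deletion was induced in the lung with Adeno-CMV-cre, a virus whose CMV promoter is not specific to a cell type, and tumors were taken 7 months later from mice aged 8 to 9 months. A single tumor per mouse was dissociated and sorted for live cells, so each tumor is 1 library of pooled cell types without a replicate, and no test between cells or tumors was made. The libraries held 5285038 UMIs in TKO1 and 8291430 in TKO2. They shared 22 cell barcodes, none of them (0) a barcode of a *Mycl*-high cell.

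*Mycl* encodes L-Myc, a member of the MYC family of basic helix-loop-helix leucine zipper factors. MYC proteins pair with MAX, bind the E-box letters CACGTG and act on genes of ribosome biogenesis, translation and cell growth. *Mycl* was first found as an amplified gene in small cell lung cancer, and it is a driver of tumors in mice that lack *Rb1* and *Trp53*.

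By the rule, the *Mycl*-high cells differed from the rest in *Mycl*, and their *Mycl* values are a description only. The lowest, median and highest cell held 3, 4 and 23 *Mycl* UMIs, 524 UMIs together. Just inside the threshold 25 cells held 3 UMIs, and just outside it 64 cells held 2 and 200 cells held 1, while 2654 cells within the limits held 0. In TKO2, 222 cells held 1 UMI, 20 held 2 and 2 held 3.

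To compare the *Mycl*-high cells across all genes, each was set against the 5 unused cells with 0 *Mycl* UMIs that were nearest in total UMIs, 435 cells in all. The median cell held 1979 UMIs in the *Mycl*-high set and 1980 in the matched set, and 1065 against 1153 detected genes. UMIs were summed over each set (184273 against 909993) and expressed as counts per 1000000 UMIs (CPM). A gene with a mean CPM of at least 50 over both sets was counted, and a ratio of 2-fold or more was called higher or lower, with its 95% exact interval from the UMIs. Of 3470 genes counted outside a window of 2 Mb on either side of *Mycl*, 278 (8.01%) were higher and 436 (12.6%) were lower in the *Mycl*-high cells, and the median log2 ratio was -0.06. Without ribosomal protein and mitochondria-encoded genes in the total, 455 were higher and 399 lower.

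The counted genes next to *Mycl* on its downstream side were higher in the *Mycl*-high cells. The window held 56 other genes, of which 16 were counted, 6 of them higher and 4 lower. The 6 higher genes were *Trit1*, *Ppie*, *Pabpc4*, *Macf1*, *Ndufs5* and *Akirin1*, and they were the 6 counted genes next to *Mycl* on its downstream side, over 0.734 Mb (mm10, chr4:123016597-123750345). *Ppie*, a spliceosomal peptidyl-prolyl isomerase, had 753 UMIs in the *Mycl*-high cells and 150 in the 5 times as many matched cells. Its lowest, median and highest cell had 0, 5 and 39 UMIs in the *Mycl*-high set and 0, 0 and 7 in the matched set, and 81 of 87 *Mycl*-high cells held a UMI, and the sets overlapped from 0 to 7 UMIs. The log2 ratio of *Ppie* was 4.63 (4.38 to 4.89). *Pabpc4*, a cytoplasmic poly(A)-binding protein, had 356 against 40 UMIs, with 0, 2 and 27 UMIs in the lowest, median and highest *Mycl*-high cell and 0, 0 and 5 in the matched cells. Its log2 ratio was 5.46 (4.98 to 5.97).

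The other higher neighbours moved less far. *Akirin1*, a nuclear adaptor, had a log2 ratio of 3.68 (447 against 172 UMIs). *Trit1*, a tRNA isopentenyltransferase, also stood at 3.68 (83 against 32 UMIs). *Ndufs5*, a subunit of respiratory complex I, was at 4.11 (35 against 10 UMIs) and *Macf1*, a microtubule-actin crosslinker, at 2.84 (74 against 51 UMIs). Of the 10 other counted genes of the window none was 2-fold higher. On the upstream side *Rlf* was at -1.07 (-2.33 to -0.03) and *Smap2* at -2.63 (-4.94 to -1.04), and on the downstream side *Mycbp* was at -1.31 (-2.67 to -0.21) and *Rragc* at 0.07 (-0.88 to 0.91). *Rlf* was under 2-fold in 7 of 16 alternative settings and *Mycbp* in 2 of 16, with values up to -0.14 and -0.68. The further counted genes of the window, *Utp11l*, *Sf3a3*, *Mtf1*, *1110065P20Rik*, *Yrdc* and *Cdca8*, lay between -1.29 and 0.58.

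**Figure D1:**
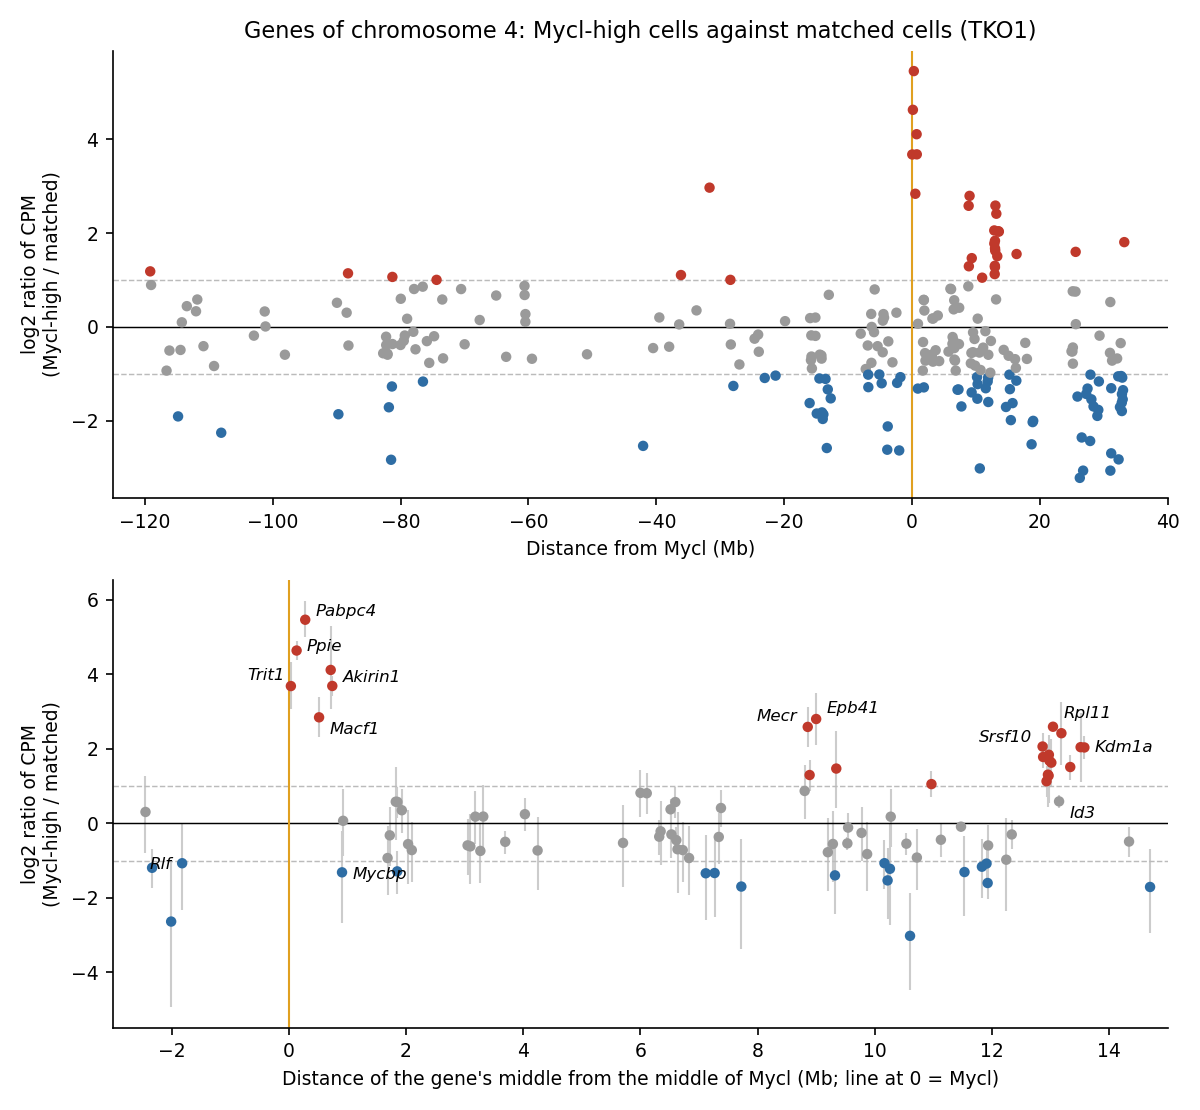
Log2 ratio of CPM (*Mycl*-high over matched cells of TKO1) for each counted gene of chromosome 4 except *Mycl*, against the distance of the gene from *Mycl* in Mb; the lower panel enlarges -3 to 15 Mb and adds the 95% exact interval of each ratio as a line (clipped at the axis). Red genes were at least 2-fold higher and blue genes at least 2-fold lower; the 6 genes after *Mycl* stand between 2.84 and 5.46, and 2 further groups of red genes lie near 9 and 13 Mb among grey and blue ones.

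Summed over the 6 genes, the *Mycl*-high cells had 1748 UMIs and the matched cells 455, a log2 ratio of 4.25 (4.10 to 4.40). The lowest, median and highest *Mycl*-high cell had 1, 14 and 92 of these UMIs, and the matched cells 0, 1 and 17. No *Mycl*-high cell was at 0, 69 of 87 were above the 95th percentile of the matched cells, and 37 were above the highest matched cell. Seen from the other side, 79 cells within the limits held at least 10 UMIs of the 6 genes, and 55 of them were *Mycl*-high, 21 held 1 or 2 *Mycl* UMIs and 3 held 0. Over all 56 neighbours together, without *Mycl*, the log2 ratio was 2.39 (2.29 to 2.48). DNA copy number was not measured in these data.

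A share of cells with a UMI gave the same order. When every cell was reduced at random to 1000 UMIs, which left out 9 *Mycl*-high, 45 matched and 12 shallower macrophage-gene cells (those past the macrophage limit), *Ppie* was found in 87.2% of *Mycl*-high cells (77.7 to 93.7, 68 of 78 cells), 12.1% of matched cells (8.99 to 15.7) and 6.06% of macrophage-gene cells (1.68 to 14.8), which served as the background from free RNA. The shares before thinning were 93.1%, 20.7% and 6.41%, at median depths of 1979, 1980 and 1319.5 UMIs. *Pabpc4* was found after thinning in 66.7%, 2.31% and 1.52% of the same sets (71.3%, 6.44% and 1.28% before). *Mycl* itself was in 1 of 78 macrophage-gene cells and in 13 of 110 *Scgb1a1* cells, and none of either set held 3 UMIs (0 of 78 allows up to 4.62% and 0 of 110 up to 3.30%, the exact upper limits at 95%).

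Chromosome 4 held 2 further groups of higher genes, whose bounds were set after the values were seen. From *Mecr* to *Epb41* (chr4:131843470-132075321, 8.86 to 9.00 Mb after *Mycl*), all 3 counted genes were higher (8.01% over all genes counted). These were *Mecr*, an enzyme of mitochondrial fatty acid synthesis, at 2.58 (68 against 56 UMIs), the splicing factor gene *Srsf4* at 1.29 (74 against 149 UMIs) and *Epb41*, a membrane skeleton protein, at 2.80 (45 against 32 UMIs). The counted genes on either side were *Ptpru* at 0.87 and *Ythdf2* at -0.78.

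From *Srsf10* to *Kdm1a* (chr4:135855747-136602723, 12.9 to 13.6 Mb after *Mycl*), 13 of 14 counted genes were higher, beside the same 8.01%, with a median log2 ratio of 1.73 and a summed ratio of 2.07 (2.01 to 2.13). The genes on either side, *Srrm1* and *Cdc42*, were at -0.30 and -0.49. *Rpl11*, a protein of the large ribosomal subunit known to bind MDM2, was the largest of this group, with 2909 UMIs in the *Mycl*-high cells against 2388 in the matched cells and a log2 ratio of 2.59 (2.51 to 2.67). Per 10000 UMIs of a cell, its lowest, median and highest values were 0, 127 and 534 in the *Mycl*-high cells and 0, 21.9 and 299 in the matched cells. The sets overlapped, with 66 of 87 *Mycl*-high cells above the 95th percentile of the matched cells and 11 above the highest. *Kdm1a*, the histone demethylase LSD1, was at 2.03 (155 against 187 UMIs). *E2f2*, a cell-cycle transcription factor, was at 2.42 (27 against 25 UMIs), *Srsf10* at 2.06 and *Pnrc2*, a decapping cofactor, at 1.78. *Id3*, an inhibitor of bHLH factors, was the gene of the group that stayed under 2-fold, at 0.59 (355 against 1167 UMIs).

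Over the rest of chromosome 4, lower genes were more frequent than higher ones. Over the whole chromosome except *Mycl*, 34 of 265 counted genes were higher (12.8%) and 79 lower (29.8%). The 3 groups were picked for their higher genes, so leaving them out lowers the count of higher genes by construction. Without them, 79 of 242 counted genes, window genes included, were lower (32.6%, against 12.6% of all genes counted outside the window). Of these 242 genes 12 were higher, and the median log2 ratio was -0.56. The median was -0.39 over the 124 genes before *Mycl* and -0.72 over the 118 genes after it. Over the 16 genes more than 100 Mb before *Mycl* it was -0.09, with 2 genes lower (12.5%). *Cdkn2c*, the CDK inhibitor p18, 13.3 Mb before *Mycl*, had 27 UMIs in the *Mycl*-high cells against 799 in the matched cells, a log2 ratio of -2.58 (-3.19 to -2.03), and *Sfn*, the 14-3-3 sigma gene, 10.6 Mb after *Mycl*, had 6 against 240 (-3.02, -4.48 to -1.87). Of the runs of at least 3 consecutive counted genes that were all lower, 11 of 20 were on chromosome 4, the longest of 13 genes from *Casz1* to *Acot7*. Of the 12 runs of higher genes, 4 were on chromosome 4, 6 on chromosome 19 and 2 elsewhere.

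Chromosome 19 stood apart in the other direction. Of its 89 counted genes, 37 (41.6%, against 8.01% of all genes counted) were higher, 3 were lower and 74 were above 0, with a median log2 ratio of 0.86. The next highest chromosome median was 0.08, on chromosome 14, and the lowest was -0.52, on chromosome 4. Chromosome 19 gave 2.91% of the UMIs in the *Mycl*-high cells and 2.12% in the matched cells, a log2 ratio of 0.46 (0.41 to 0.50). Per cell, the lowest, median and highest share was 0.375%, 2.91% and 4.41% in the *Mycl*-high cells and 0.978%, 2.07% and 5.57% in the matched cells, and 83 of 87 *Mycl*-high cells were above the matched median. Among its higher genes were *Sfrp5*, a secreted Wnt antagonist, at 4.01 (49 against 15 UMIs), the histone chaperone gene *Npm3* at 2.42 (27 against 25) and the phosphatase inhibitor gene *Ppp1r14b* at 2.26 (61 against 63). Among the 13 *Mycl*-high cells without a UMI of a list of mitosis genes, *Npm3* was at 0.32. This value rests on few UMIs, since the whole *Mycl*-high set held 27. Outside chromosomes 4 and 19, 213 of 3132 counted genes were higher and 358 were lower.

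**Figure D2:**
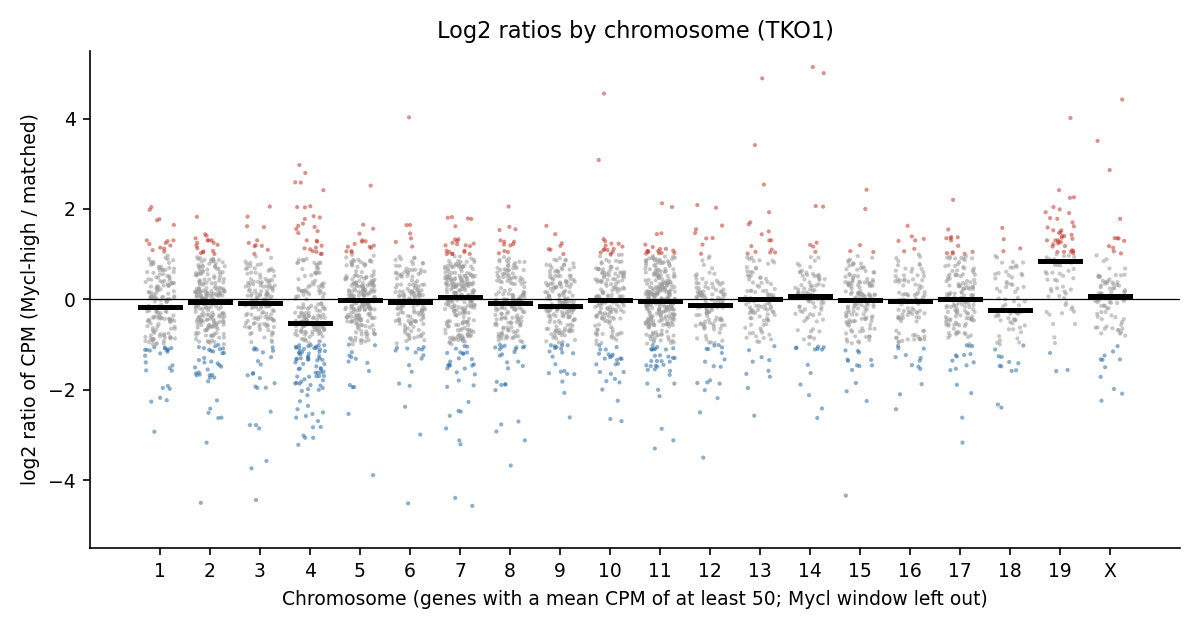
Log2 ratio of CPM (*Mycl*-high over matched cells of TKO1) for each gene counted outside the *Mycl* window, by chromosome; each point is a gene (red at least 2-fold higher, blue at least 2-fold lower) and the black bar is the chromosome's median. The medians of chromosomes 4 (-0.52) and 19 (0.86) lie apart from the other chromosomes.

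Levels also differed among cells below the threshold. The 6 neighbours together stood at 480.2 CPM in cells with 0 *Mycl* UMIs (2654 cells, median 1180 UMIs), 1609.9 in cells with 1 (200 cells, 1388 UMIs), 2329 in cells with 2 (64 cells, 1760 UMIs), 5731 in cells with 3 to 4 (45 cells, 1867 UMIs) and 12462 in cells with 5 or more (42 cells, 2223 UMIs). *Rpl11* went from 2691 to 4667, 6719.8, 13095 and 17919.9 CPM over the same bins. *Calca*, which encodes calcitonin and CGRP, went down from 18309.5 to 12181, 9057, 3117 and 1595 CPM. *Mycbp*, just outside the 6 genes, went from 96.4 to 81.4, 73.0, 36.8 and 38.9 CPM. *Ppt1*, a lysosomal thioesterase gene upstream of *Mycl* that was below the level for counting, was at 48.5 CPM (41.5 to 56.2) in cells with 0 *Mycl* UMIs, and its 1 UMI in cells with 3 to 4 and 3 UMIs in cells with 5 or more gave 12.3 CPM (0.311 to 68.4) and 29.2 CPM (6.02 to 85.3). The median depth was higher in each bin than in the bin before, and its part in these levels was not tested.

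**Figure D3:**
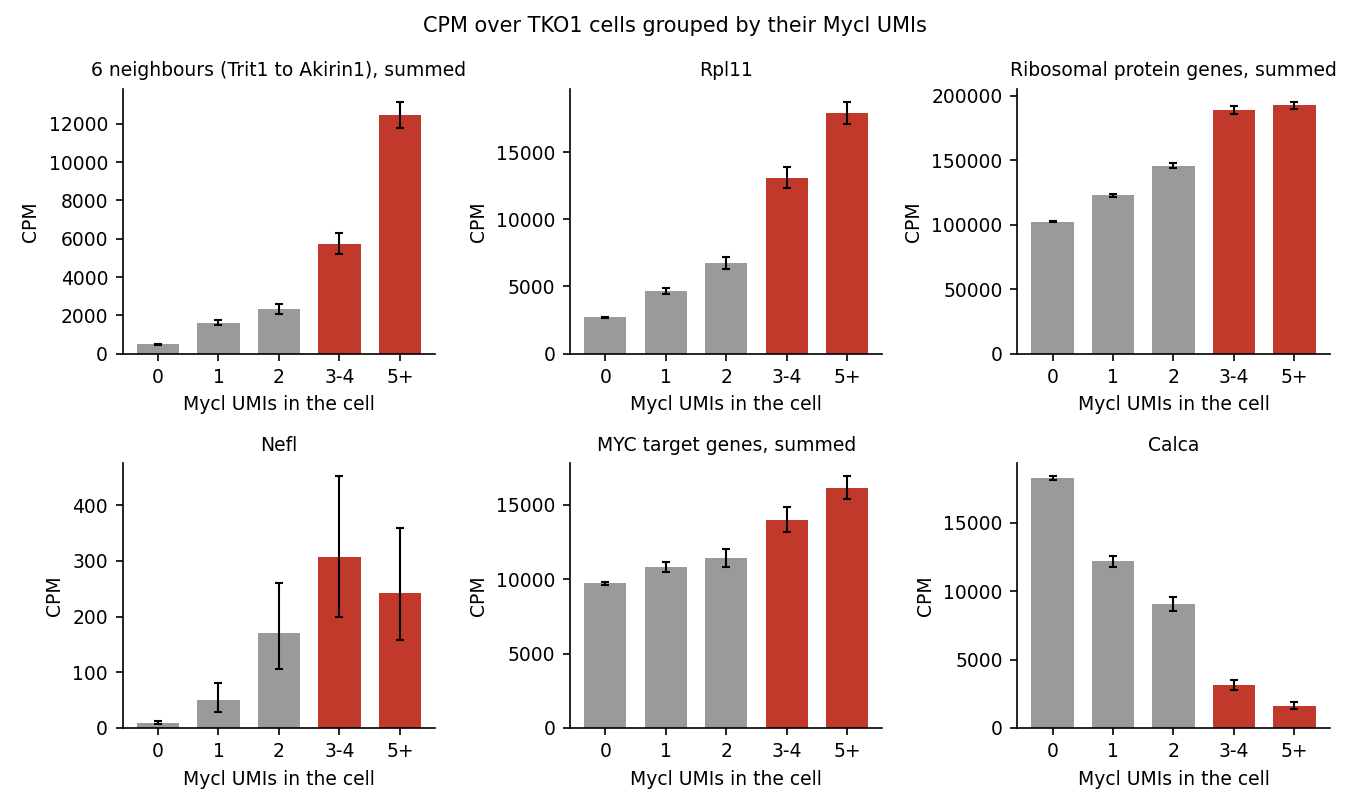
CPM of 6 genes or gene groups in the TKO1 cells within the limits, grouped by *Mycl* UMIs per cell (0, 1, 2, 3 to 4, 5 or more); bars are UMIs summed over the cells of a bin divided by their total, and error bars are 95% exact Poisson intervals. Red bars are the *Mycl*-high cells; the neighbours, *Rpl11*, the ribosomal protein genes and the MYC targets go up from 0 to 5 or more *Mycl* UMIs, *Calca* goes down, and *Nefl* is highest at 3 to 4.

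Of the remaining named genes, the largest ratios belonged to genes found in a minority of the *Mycl*-high cells. *Nefl*, the neurofilament light chain, had 50 UMIs in 31 of 87 *Mycl*-high cells and 7 UMIs in 4 of 435 matched cells, a log2 ratio of 5.14 (3.99 to 6.53). *Nefm*, the medium chain, had 16 UMIs in 13 cells against 7 in 6 cells (3.50, 2.14 to 5.02). *Neurog3*, the proneural factor of endocrine progenitors, had 19 UMIs in 10 cells against 4 in 4 cells (4.55, 2.96 to 6.57), with 7 of the UMIs in a single cell. *Iapp*, islet amyloid polypeptide, had 33 UMIs in 15 cells against 10 in 9 cells (4.03, 2.97 to 5.21). These 4 genes were also found below the threshold. In cells with 0, 1, 2, 3 to 4 and 5 or more *Mycl* UMIs, *Nefl* stood at 9.14, 50.1, 170, 307 and 243 CPM. Over the same bins *Nefm* stood at 12.5, 62.6, 130, 135 and 48.6, and *Iapp* at 26.3, 110, 162, 172 and 185. *Neurog3* was at 3.32, 28.2, 24.3, 184 and 38.9 CPM, the last from 4 UMIs. After thinning, *Nefl* was found in 21.8% of *Mycl*-high cells (13.2 to 32.6) and 0.256% of matched cells, *Iapp* in 12.8% and 1.28%, *Nefm* in 7.69% and 0.769%, and *Neurog3* in 6.41% and 0.256%. Before thinning these shares were 35.6% and 0.92%, 17.2% and 2.07%, 14.9% and 1.38%, and 11.5% and 0.92%. None of the 4 genes had a UMI in the macrophage-gene cells (0 of 66 after thinning, which allows up to 5.44%).

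Other named higher genes were *Gzma*, a granzyme of cytotoxic lymphocytes (18 UMIs in 7 cells against 3 UMIs, 4.89), *Cartpt*, a neuropeptide (28 UMIs in 12 cells against 13, 3.41), *Elavl2*, a neuronal RNA-binding protein on chromosome 4, 31.7 Mb before *Mycl* (27 UMIs in 21 cells against 17, 2.97), *Tubb2b*, a neuronal beta-tubulin (2.54), the LIM protein gene *Csrp2* (3.08), *Mageh1* (2.86), *Syngr1*, a synaptic vesicle protein (2.42), *Pus1*, a pseudouridine synthase (2.52), and *Rrm2*, the small subunit of ribonucleotide reductase (2.03). The processed pseudogene *Gm10110* (5.00) may share reads with its parent gene, so its UMIs are uncertain. *Bex1* had 69 UMIs in 41 cells against 30 in 22 cells (3.51) and *Bex4* 26 in 23 cells against 6 in 5 cells (4.42). These are X-linked genes of a family of small brain-expressed proteins, which lie next to each other, and *Bex2*, their neighbour and a close relative of *Bex1*, was also higher (1.35, 134 against 260 UMIs). Reads of such relatives may be split between them in counting. *Bex2* was under 2-fold in 1 of 16 alternative settings, at 0.96.

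**Figure D4:**
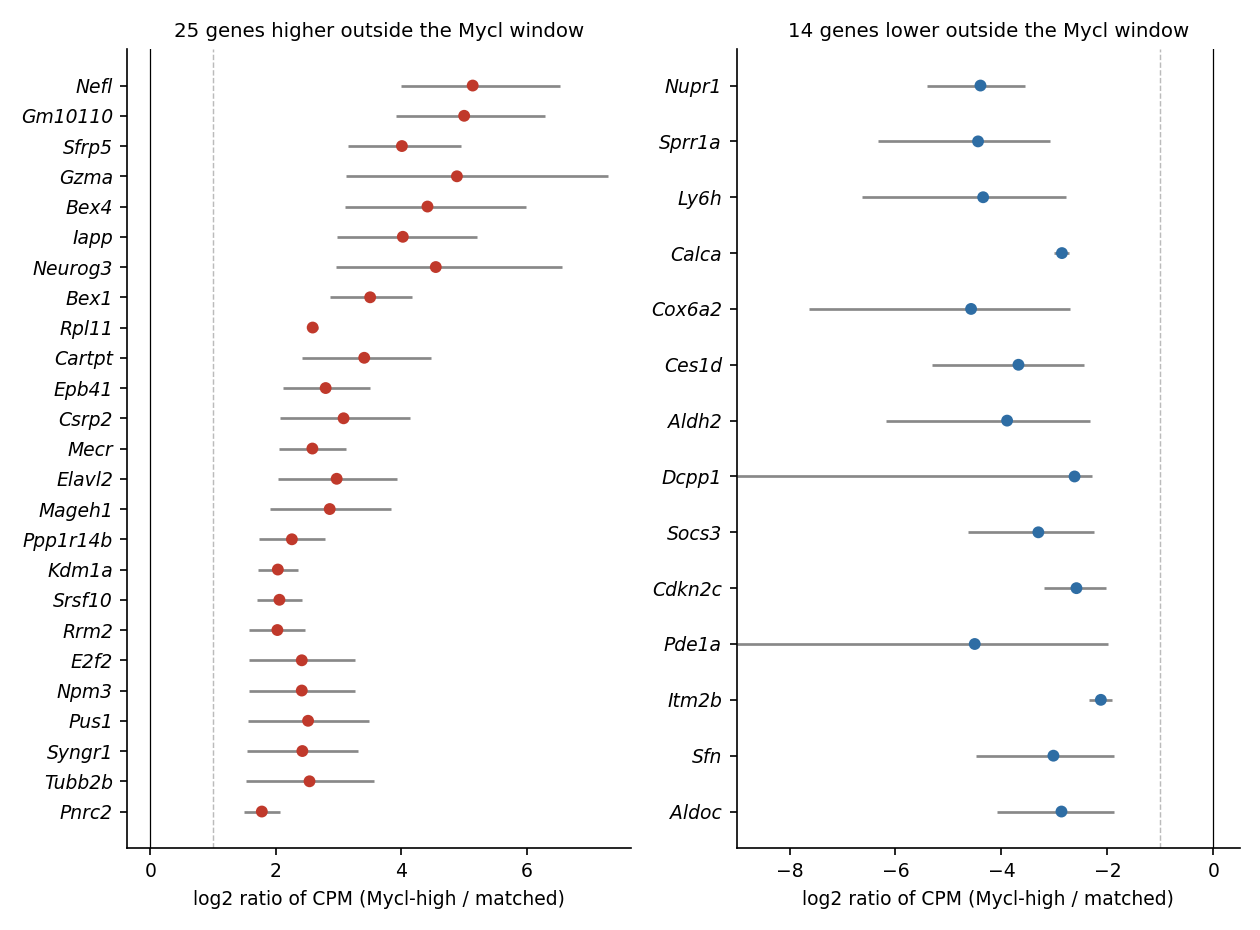
Log2 ratio of CPM (*Mycl*-high over matched cells of TKO1; points) with the 95% exact interval (lines, clipped at -9) for the 25 genes with the highest lower bound and 14 of the 15 with the lowest upper bound outside the *Mycl* window. *Nefl* leads on the left at 5.14 and *Nupr1* on the right at -4.40; the point of *Dcpp1*, with 0 UMIs, is a bound.

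The E-box letters CACGTG were searched on both strands (the motif is its own reverse complement) in RefSeq windows of 250 bases before to 50 after the start of each gene (GRCm38.p6). They were in 8.09% of 27025 genes with such a window, in 12.7% of 2730 counted genes in 33 of 224 higher genes (14.7%) and in 41 of 342 lower genes. Of the 25 named higher genes 21 had a window and 3 held the letters, namely *Bex4*, *Bex1* and *Pus1*. Of the 15 named lower genes 10 had a window and 2 held them, *Cdkn2c* and *Nupr1*. Of 17 counted MYC target genes with a window, 9 did, among them *Ran*, *Cdk4*, *Eif4e* and *Nme1*. The windows of *Bex4* (chrX:136138746-136139005, plus strand), *Bex1* (chrX:136215504-136215763, minus strand) and *Ran* (chr5:129019906-129020165, plus strand) are shown up to base 10 after the start, with the motif in capitals, since the *Bex* genes moved together and *Ran* was among the higher MYC targets. *Bex4* and *Bex1* share a run of 231 bases that includes the motif, whose first base lies 9 bases before the start of *Bex4*, 3 before that of *Bex1*, where it spans the start, and 118 before that of *Ran*. A match says only that the letters are there.
Bex4: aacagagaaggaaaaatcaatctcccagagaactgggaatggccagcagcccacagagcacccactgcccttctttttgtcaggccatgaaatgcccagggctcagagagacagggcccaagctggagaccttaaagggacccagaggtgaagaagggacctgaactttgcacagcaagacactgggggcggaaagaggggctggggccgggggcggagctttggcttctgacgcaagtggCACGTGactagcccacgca
Bex1: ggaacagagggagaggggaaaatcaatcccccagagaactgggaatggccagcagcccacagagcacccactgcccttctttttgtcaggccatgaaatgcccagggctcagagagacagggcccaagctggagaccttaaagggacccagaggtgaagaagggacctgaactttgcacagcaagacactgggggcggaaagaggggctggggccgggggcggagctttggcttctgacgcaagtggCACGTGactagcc
Ran: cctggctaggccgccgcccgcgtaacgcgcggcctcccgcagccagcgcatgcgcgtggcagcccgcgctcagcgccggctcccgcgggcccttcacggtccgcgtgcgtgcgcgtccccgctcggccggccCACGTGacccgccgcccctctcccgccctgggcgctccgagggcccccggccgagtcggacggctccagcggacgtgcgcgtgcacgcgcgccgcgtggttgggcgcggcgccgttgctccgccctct

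Known MYC targets were higher as a group. Of 35 listed genes 20 were counted, 14 were higher and 0 lower, against 8.01% higher and 12.6% lower over all genes counted, and the median log2 ratio was 1.10 against -0.06. *Gnl3*, a nucleolar GTPase, was at 2.06 (22 against 26 UMIs), *Srm*, spermidine synthase, on chromosome 4, at 1.60 (59 against 96), *Ran*, the nuclear transport GTPase, at 1.45 (328 against 592), *Ranbp1* at 1.29, *Npm1*, nucleophosmin, at 1.16 (213 against 472) and *Ncl*, nucleolin, at 0.69. *Ldha*, lactate dehydrogenase, went the other way, at -0.86 (380 against 3406 UMIs). *Gnl3* was counted only through its level in the *Mycl*-high cells, so the count of higher genes is partly set by the filter. Summed over all 35 genes, counted or not, the list stood at 15200 CPM in the *Mycl*-high cells and 9832 in the matched cells, a log2 ratio of 0.63 (0.57 to 0.69). The sum of the list was 0.55 when cells were also matched on cell-cycle UMIs and 0.13 (-0.09 to 0.34) among the 13 *Mycl*-high cells without a UMI of the mitosis list. In those cells *Srm* was at -0.85, *Npm1* at 0.60, *Ranbp1* at 0.86 and *Pus1*, higher above, at -0.26. The whole *Mycl*-high set held 59 *Srm* and 22 *Pus1* UMIs, so their values in 13 cells rest on few UMIs. *Ran* was at 0.79 with the cell-cycle matching. Among the partners and antagonists of MYC, *Myc* and *Mycn* had 0 UMIs in the *Mycl*-high cells (9 and 11 in the matched cells), *Max* was at -0.40 (13 against 85 UMIs), *Mxd3* at 1.44 and *Mxd4* at -0.93.

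Ribosomal protein genes were higher as a set. Of 82 counted genes 28 were higher and 0 lower (8.01% and 12.6% over all genes counted), with a median of 0.80, and the median cell gave 19.2% of its UMIs to them in the *Mycl*-high set against 9.62% in the matched set. The lowest and highest cells were at 9.58% and 28.5% in the *Mycl*-high set and at 4.32% and 26.5% in the matched set, so the ranges overlapped. Without *Rpl11* the summed log2 ratio was 0.86 (0.85 to 0.88). The median share of mitochondria-encoded UMIs was 0.554% against 0.541%.

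The *Mycl*-high cells also held more cell-cycle UMIs, which moved with the groups above and whose part in them was not tested. Of the S phase list 5 of 18 counted genes were higher, against 8.01% of all genes counted, and 0 lower (median 0.71), led by *Fen1*, a flap endonuclease on chromosome 19 (2.25), *Rrm2* (2.03) and the cyclin gene *Ccne1* (1.78). Of the mitosis list 8 of 19 were higher, beside the same 8.01%, and 0 lower (median 0.72), among them *Hmmr*, a spindle-associated protein (1.44), and the cyclin gene *Ccnb2* (1.24), while the proliferation marker *Mki67* was at -0.13 and *Ccnb1* at 0.16. A UMI of the mitosis list was in 74 of 87 *Mycl*-high cells and 293 of 435 matched cells, and at least 10 such UMIs were in 30 and 70 cells. With cells matched on the summed UMIs of these 2 lists too, *Rrm2* was at 0.53. *Rrm2* is a member of the S phase list, so this matching lowers its ratio in part by construction. With the same matching the log2 ratio of the 56 neighbours was 2.27, and 215 genes were higher and 384 lower.

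The neuronal cytoskeleton list was uneven, beside 8.01% higher and 12.6% lower over all genes counted. Of 9 counted genes 3 were higher (*Nefl*, *Tubb2b* and *Tubb3*, the neuronal beta-tubulin of class III, at 2.05) and *Map1b*, a microtubule-associated protein, was lower at -1.58 (20 against 296 UMIs). *Map1b* was under 2-fold in 1 of 16 alternative settings, at -0.97. *Nefl* (271 against 7.69 CPM) and *Tubb2b* (109 against 18.7 CPM) were counted only through their level in the *Mycl*-high cells, so the count of higher genes is partly set by the filter. *Stmn1*, which gave 576 of the list's 824 UMIs, was at -0.09, and the summed ratio was 0.06 (-0.05 to 0.16). *Nefh*, the heavy chain, was at 1.08 (12 against 28 UMIs) and below the level for counting. Of the islet endocrine list 4 of 26 genes were counted. *Iapp* and *Neurog3* were higher, *Insm1* was at -0.02 and *St18* at -1.12, and 18 listed genes had 0 UMIs in the *Mycl*-high cells. *Iapp* (179 against 11.0 CPM) and *Neurog3* (103 against 4.40 CPM) were likewise counted only through their level in the *Mycl*-high cells. The sum of the list was 90 against 288 UMIs (0.63, 0.27 to 0.97), and without *Iapp* and *Neurog3*, left out after their values were seen, it was 38 against 274 UMIs (-0.55, -1.08 to -0.05). With cells also matched on cell-cycle UMIs, the summed ratio of the neuronal cytoskeleton list was -0.37.

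The neuroendocrine genes were lower in part. Of 22 counted genes 8 were lower and 1, *Bex2*, was higher (under 2-fold in 1 of 16 alternative settings). Over all genes counted 12.6% were lower and 8.01% higher, and the median of the 22 genes was -0.51. *Calca* had 418 UMIs against 14958, a log2 ratio of -2.86. The lowest, median and highest *Mycl*-high cell held 0, 2 and 31 *Calca* UMIs and the matched cells 0, 31 and 156. Per 10000 UMIs of a cell these values were 0, 10.7 and 187.5 in the *Mycl*-high cells and 0, 158 and 614 in the matched cells, so the sets overlapped. After thinning, *Calca* was in 57.7% of *Mycl*-high, 97.4% of matched and 30.3% of macrophage-gene cells (78.2%, 98.2% and 39.7% before). The granin gene *Chgb* was at -2.51 (10 against 282 UMIs), *Scg2* at -2.18, the secretory granule gene *Resp18* at -1.96 (83 against 1597) and *Nkx2-1*, a lung lineage factor, at -1.01. *Nkx2-1* was under 2-fold in 9 of 16 alternative settings. *Chga*, another granin gene, was at -0.23 (135 against 780 UMIs), *Insm1* at -0.02 and *Foxa2* at -0.32. Of the proneural and Notch list, *Hes6* was at 0.58 and *Id1* at -1.19.

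Many genes of stress and stimulation were lower, and the shares below stand beside 12.6% lower and 8.01% higher over all genes counted. Of 13 counted immediate early genes 11 were lower and 0 higher (median -1.39), with *Fos* at -1.85 (174 against 3103 UMIs), *Junb* at -1.90 and *Klf2* at -2.92. These genes are also known to respond to tissue dissociation. Of 14 counted hypoxia and glycolysis genes 9 were lower and 0 higher (median -1.28), with the hypoxia-induced genes *Egln3* at -2.01, *Bnip3* at -1.66 and *Aldoa* at -1.31. *Bnip3* was under 2-fold in 1 of 16 alternative settings, at -0.87. *Nupr1*, a stress-induced nuclear protein, led the lower genes with 11 UMIs against 1143 (-4.40, -5.40 to -3.55). In the integrated stress response list, 4 of 13 counted genes were lower, *Nupr1*, *Ddit3* (-2.70), *Cebpb* (-1.34) and *Herpud1* (-1.11), and *Eif4ebp1*, a translation repressor, was higher at 1.60 (24 against 39 UMIs). Interferon genes went both ways, with *Rsad2* at 2.09, *Ifit1* at 1.93 and *Isg15* at 1.81 against *Usp18* at -2.99, *Ifi27* at -1.49 and *Ifi35* at -1.30.

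Other named lower genes were *Sprr1a*, a cornified envelope protein (4 against 429 UMIs, -4.44), *Ly6h* (3 against 301, -4.34), *Cox6a2*, a subunit of cytochrome c oxidase (2 against 235, -4.57), *Ces1d*, a carboxylesterase (-3.68), *Aldh2*, mitochondrial aldehyde dehydrogenase (-3.89), *Socs3*, a cytokine signaling inhibitor (-3.30), *Aldoc*, an aldolase (-2.87), *Pde1a*, a phosphodiesterase (-4.50), and *Itm2b*, a membrane protein (179 against 3849, -2.12). *Dcpp1* had 0 UMIs in the *Mycl*-high cells against 91, at least 6.14-fold lower with the 0 taken at a floor of 3 UMIs over the set. Among the 13 *Mycl*-high cells without a mitosis-list UMI, *Aldh2* was at -0.85 and *Aldoc* at -0.89, and the bound of *Dcpp1*, still at 0, was under 2-fold. The whole *Mycl*-high set held 3 *Aldh2* and 8 *Aldoc* UMIs, so these values rest on very few UMIs.

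UMIs of other cell types' markers were few, in part by the rule, which capped *Scgb1a1* and 6 genes of the macrophage list, *Lyz2* among them. The macrophage list had 46 UMIs in the *Mycl*-high cells against 186 in the matched cells (log2 ratio 0.29, -0.21 to 0.76). Of the 46 UMIs 30 were of *Ctsd*, and 14 of 18 genes were at 0, among them *Lyz2*; the 11 UMIs of *Cd74* were all in 1 cell. The alveolar and erythroid lists had 0 UMIs in the *Mycl*-high cells, the fibroblast list 7 against 11 (1.65, 0.05 to 3.15), all 7 of *Dcn*, and the lymphocyte and neutrophil list 8 against 19 (1.06, -0.34 to 2.31), of which 5 were *Cd3g*, all in 1 cell, with 7 of its 11 genes at 0. The endothelial list had 72 UMIs, all of *Vwf*, against 524 in the matched cells. The club list had 35 UMIs, 24 of them of *Scgb1a1*, against 567, of which 316 were of *Ces1d*. The ciliated list had 80 UMIs, 70 of them of *Tubb4b*, against 905, of which 606 were of *Tubb4b*. Doublets were not called, and without the cells above the 95th percentile of UMIs the neighbours' log2 ratio was 2.24.

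The markers were found in overlapping but not identical sets of *Mycl*-high cells, and at this depth a cell with 0 UMIs of such a gene cannot be called negative for it. Of 87 cells 41 held none of *Nefl*, *Nefm*, *Iapp* and *Neurog3*, 26 held 1 of them, 17 held 2, 3 held 3 and 0 held all 4. *Nefl* and *Nefm*, partners in the same filament, were together in 9 cells, *Nefl* alone in 22 and *Nefm* alone in 4. *Iapp* was found with *Nefl* in 7 cells, with *Neurog3* in 2 and with *Gzma* in 6 of the 7 *Gzma* cells. The 15 cells with an *Iapp* UMI had a median of 36.7 *Rpl11* UMIs per 10000 (0 to 250.1) against 164 (12.5 to 534) in the other 72, and a median of 9 *Calca* UMIs (0 to 31) against 2 (0 to 19). They had a median of 8 UMIs of the 6 neighbours against 14.5, of 4 *Mycl* UMIs against 4.5 and a chromosome 19 share of 3.11% against 2.88%, at a median depth of 2300.0 against 1909 UMIs. *Nefl* did not split the cells this way, with a median of 127 *Rpl11* UMIs per 10000 in cells with and 135 in cells without a UMI. The ranges overlapped in each case, and the splits were chosen after the values were seen.

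**Figure D5:**
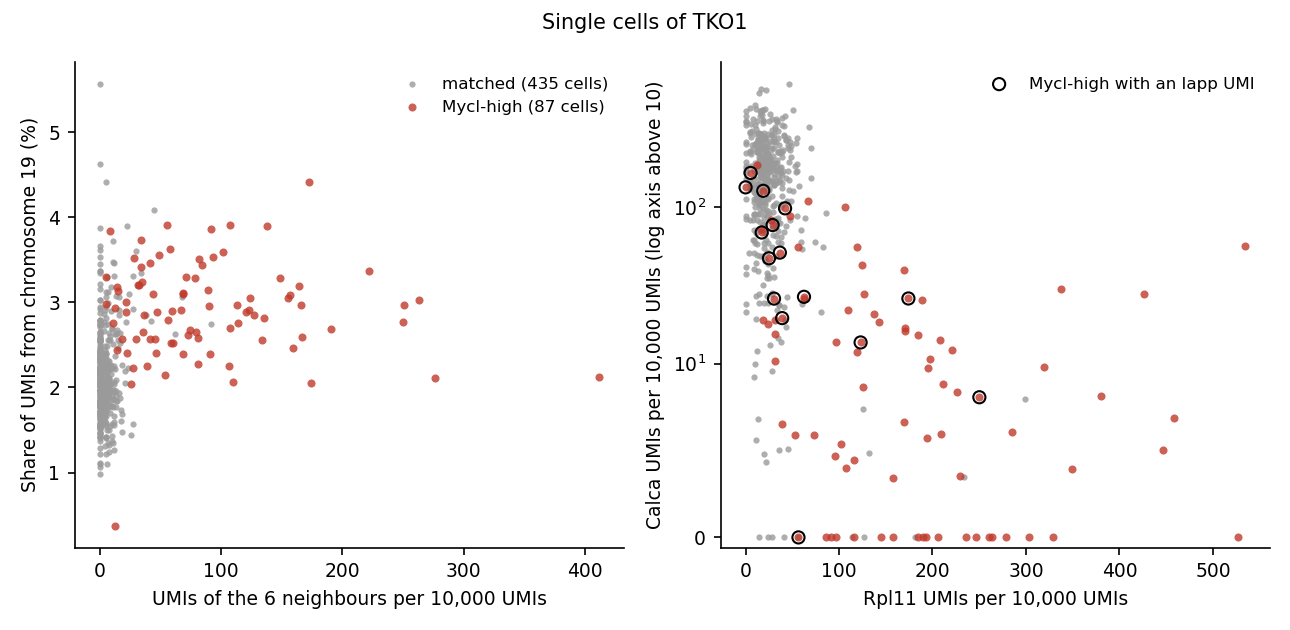
Each point is a cell of TKO1, red for the 87 *Mycl*-high cells and grey for the 435 matched cells. Left, UMIs of the 6 neighbours per 10000 UMIs of the cell against the share of UMIs from chromosome 19 in percent; right, *Rpl11* against *Calca* UMIs per 10000 (log axis above 10), with black rings around the *Mycl*-high cells that hold an *Iapp* UMI (median 36.7 *Rpl11* UMIs per 10000).

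The pattern of neighbours was compared with TKO2 at a threshold that both tumors allow, at least 1 *Mycl* UMI. In TKO2 244 such cells were set against 1220 matched cells, and the 6 neighbours had a log2 ratio of -0.26 (-0.49 to -0.03) and chromosome 19 of -0.01 (-0.04 to 0.01). In TKO1 351 cells against 1755 gave 3.04 (2.94 to 3.13) and 0.31 (0.28 to 0.33). The 351 cells include the 87 *Mycl*-high cells, which gave 1748 of their 2549 UMIs of the 6 neighbours. In TKO2, 222 of the 244 cells held 1 *Mycl* UMI. The TKO1 cells with 1 *Mycl* UMI stood at 1609.9 CPM of the 6 neighbours, and all those with 0 at 480.2 CPM. With 1 library per tumor the comparison of TKO1 with TKO2 is between libraries, and no test was made.

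Levels in the *Mycl*-high cells, their matched cells and TKO2 are given side by side for genes chosen after their values were seen. *Calca* stood at 2268 CPM in the *Mycl*-high cells, 16437.5 in the matched cells and 73.5 over the TKO2 cells within the limits, and *Nupr1* at 59.7, 1256 and 36.6 CPM. *Bex1* stood at 374, 33.0 and 612 CPM, *Bex4* at 141, 6.59 and 351, *Elavl2* at 147, 18.7 and 214, *Npm3* at 147, 27.5 and 189, and *Tubb2b* at 109, 18.7 and 182. The ribosomal protein genes together took 190912, 98862 and 233181 CPM. In other genes the *Mycl*-high cells were above both other sets. *Sfrp5* stood at 266, 16.5 and 43.6 CPM, *Mecr* at 369, 61.5 and 84.7 and *Rpl11* at 15786, 2624 and 3989. The 6 neighbours stood at 9486 CPM in the *Mycl*-high cells and 312 in TKO2, *Kdm1a* at 841, 205 and 82.3, *Nefl* at 271, 7.69 and 21.8 and *Neurog3* at 103, 4.40 and 5.43. *Mycn* had 0 UMIs in the *Mycl*-high cells, 12.1 CPM in the matched cells and 2848 CPM in TKO2. All these levels are set beside the same matched cells, and those of TKO2 come from a library of its own.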

How the data were processed

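Single cells of 2 lung tumors (TKO1 and TKO2, 1 library each) were captured on the Chromium system. Per the labels, the processing notes name Cell Ranger, Seurat and mm10; versions are not given in the sources used here. The authors deposited a matrix of UMI counts per gene and cell for each tumor, without normalization, and the counts were used as deposited. The members and gene lists were chosen with earlier results of these data known.

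Cells were selected by the limits above, matched by total UMIs, and UMIs were summed per set (Python 3.11.15, NumPy 2.4.6, SciPy 1.17.1). Ratios of CPM were given exact conditional Clopper-Pearson intervals and CPM exact Poisson intervals, at 95%. A set at 0 was taken at 3 UMIs. Cells were thinned to 1000 UMIs with seed 1. With 1 library per tumor no test was made, and intervals cover counting error only. Named genes were the 7 markers, counted genes within 2 Mb of *Mycl*, the 25 genes with the highest lower bound and the 15 with the lowest upper bound, and list members; any others were chosen after their values were seen. Positions came from GENCODE M21 (27645 of 27998 identifiers matched). The code was tested on simulated data. No doublet caller was run. Alternatives to the threshold, matching, depth, scaling, filters and cells were run. Some genes that the rule or the lists name are not reported here.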

Additional observations from a re-analysis of the deposited data

Results flagged for a closer look

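Outside the limits, 4 of 1321 TKO1 barcodes with 500 or fewer detected genes held at least 3 *Mycl* UMIs (0.303%, 95% exact interval 0.0826 to 0.773). These barcodes were outside the reported comparison. Of the alternatives, the one with more than 200 detected genes took in barcodes below the limit, at 91 *Mycl*-high cells. In TKO2, 0 of 248 barcodes with 500 or fewer detected genes held at least 3 *Mycl* UMIs, which allows up to 1.48%.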

How the results depend on the processing

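Of 69 named genes past 2-fold, 49 stayed past 2-fold in the same direction under each alternative that gave them a value (19 were run in all), and 67 kept their sign. A gene with 0 UMIs in a set under an alternative only was given no value there (32 gene and setting pairs, 24 genes); *Dcpp1*, at 0 in the reported comparison too, was given its bound at 3 UMIs. The ratio of the 6 neighbours ran from 3.71 to 5.20, of chromosome 19 from 0.41 to 0.61, of the ribosomal protein genes from 0.81 to 1.11 and of the islet list from 0.35 to 1.14. With at least 2 *Mycl* UMIs, 151 cells gave 155 higher and 261 lower genes, 1.93 for all neighbours within 2 Mb and 0.46 for MYC targets, and with at least 5, 42 cells gave 2.75 and 0.72. Without ribosomal and mitochondria-encoded genes in the total, 455 genes were higher (53.3% of calls against 38.9%), and the neighbours were at 2.54, the neuronal cytoskeleton list at 0.21 and MYC targets at 0.79. A minimum of 20 CPM gave 550 higher and 1137 lower genes, and of 100 CPM 144 and 191, since more or fewer genes were counted. The neuronal cytoskeleton list was at 0.17 without matching and 0.47 without chromosome 4. The latter leaves the list's own genes on chromosome 4 out of its sum by construction, so it is the value of a smaller list. A minimum of 1000 detected genes left 50 cells, and leaving out cells above the 95th percentile of UMIs gave 2.24 for the neighbours. Without cells with a mitosis-list UMI, 13 *Mycl*-high cells remained and 534 genes were higher. There the neighbours were at 1.95, the neuronal cytoskeleton list at 0.37, the islet list at 1.14 and MYC targets at 0.13. *Pus1* (-0.26) and *Srm* (-0.85) changed sign there, on few UMIs. There were 2 alternatives chosen after seeing the data. Matching on cell-cycle UMIs gave 2.27 for the neighbours, -0.37 for the neuronal cytoskeleton list and 0.55 for MYC targets. A pool without *Ppie* and *Pabpc4* UMIs gave 2.54 for the neighbours. Both genes are among the neighbours, so this pool raises their ratio, and that of the 6 neighbours, by construction. Where no construction is named, the cause was not tested. No paired analysis was possible because each tumor is 1 library and no result comes from a test. Depth limits the genes with few UMIs, such as *Nefm* and *Neurog3*, whose share of cells with a UMI was lower after thinning (14.9% to 7.69% and 11.5% to 6.41%).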
